A study of Homo sapiens with 6 samples.

Results

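The cadherins and protocadherins are calcium-dependent adhesion molecules of the cell surface, and 80 of the 16626 genes listed for this experiment belong to them. They were taken by gene symbol: every numbered CDH gene except CDH1 and CDH2, every numbered PCDH gene, and the clustered protocadherin genes of the alpha, beta and gamma clusters. The 80 genes comprise 13 of the alpha cluster, 15 of the beta cluster, 22 of the gamma cluster, 11 non-clustered protocadherins and 19 cadherins. RNA came from KGN, a human line with features of granulosa cells that was derived from an ovarian granulosa cell tumour. Libraries labelled OE-NC, with the genotype given as WT, were compared with libraries labelled OE-SOX3, in which the transcription factor SOX3 is overexpressed, with 3 libraries in each group. The labels name neither the vector and promoter that drive SOX3, nor what the OE-NC cells carry, nor whether the lines are clones. Nor do they say whether each library had its own culture. The p-values below therefore rest on how far these libraries differ among themselves, and that spread may be technical.

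Classical cadherins of type I and type II bind a cadherin on the neighbouring cell and are tied to actin inside the cell by the catenins. The non-clustered delta protocadherins adhere more weakly, and several of them bind the WAVE complex, which starts branched actin networks. Genes of the clustered protocadherins lie side by side, each behind its own promoter, and are best known from neurons, where each cell uses its own choice of them. In the alpha and gamma clusters each variable exon is spliced to constant exons that all genes of the cluster share, while beta genes consist of a variable exon alone. CTCF, cohesin and DNA methylation govern which of these promoters is used, and most of the promoters carry a conserved element with the core CGCT.

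The clustered genes form 3 runs on the plus strand of chromosome 5 (GENCODE 29, GRCh38). The alpha genes span chr5:140786136-141012347, the beta genes chr5:141094578-141249365 and the gamma genes chr5:141330571-141512981. The promoter elements below are printed because the beta and gamma genes are described cluster by cluster, and the element is what their promoters share. They were read from RefSeq promoters (build GRCh38.p14, plus strand, 250 bases before to 50 bases after each RefSeq start), which were at hand for 64 of the 80 genes. Capitals mark the CGCT core. Beta genes come in chromosomal order, followed by gamma genes and an alpha gene.
PCDHB2 (chr5:141094548-141094576): gacgcggggtggCGCTgcagccttagaag
PCDHB5 (chr5:141135183-141135211): gacgcctggtggCGCTgcaggctaagagt
PCDHB7 (chr5:141172570-141172598): aacgcaaggtggCGCTgctggctaaaaag
PCDHB16 (chr5:141182314-141182342): aacgcgtggtggCGCTgcaggttaagatg
PCDHB10 (chr5:141192303-141192331): gccacacggtggCGCTgcaggctaaagag
PCDHB12 (chr5:141208647-141208675): gacgcgtggtggCGCTgcaggataatatc
PCDHB13 (chr5:141213869-141213897): gacgcgtggtggCGCTgcaggataagaag
PCDHB15 (chr5:141245318-141245346): aacgcatggtggCGCTgcaggctaaggct
PCDHGB1 (chr5:141350029-141350057): acctctgggcgcCGCTgtcgaccaaaagg
PCDHGB2 (chr5:141359925-141359953): acctctgagcgtCGCTgttggtcaaaaga
PCDHGC3 (chr5:141475884-141475912): gactctgtgtgcCGCTgtcggccaatgaa
PCDHA6 (chr5:140827901-140827929): gccgcatgatgtCGCTgtctaccatgaag

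The letters around the core differed between the clusters. For each cluster the string of 10 letters around CGCT that stood in most of its promoters was taken, then searched on both strands in the promoters of 27305 genes. In the beta cluster it was GGTGGCGCTG, in 12 of 13 beta promoters and 0.341% of all genes. In the alpha cluster it was TGATGTCGCT, in 8 of 12 alpha promoters and 0.0439% of all genes. In the gamma cluster it was GCGCCGCTGT, in 9 of 20 gamma promoters and 0.165% of all genes, among them PCDHGB1; PCDHGB2 and PCDHGC3 lack it and are shown at their only CGCTGT. Each string contains CGCT and was chosen on these promoters, so the counts describe them and test nothing. The SOX core ACAAAG, searched on both strands, stood in promoters of 19 of the 64 genes (29.7%) and of 19.0% of all genes. ACAATG stood in those of 10 of the 64 (15.6%) and of 13% of all. These and the counts above are of genes, some with more than 1 promoter, and a match in any promoter counted. Among non-clustered genes described below, PCDH18 holds ACAAAG in its window and CDH9 and CDH26 hold both strings. CDH23 holds ACAATG in 1 of its 3 windows. PCDH1, PCDH7, PCDH9, PCDH15, CDH4, CDH8 and CDH18 hold neither. A match is a description of the sequence and not a binding site.

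Libraries held 18039929 to 20335307 reads. SOX3 itself had 3, 6 and 1 reads in the OE-NC libraries and 579, 547 and 540 in the OE-SOX3 libraries. Of 9 granulosa markers, 8 were in the table, and their summed level was 23.5 to 26.0 FPKM in OE-NC and 28.5 to 31.1 FPKM in OE-SOX3, led by NR5A1. OE-NC replicate 1 differed from both other libraries of its group. Its log2 values correlated with theirs at 0.986 each (Pearson, across genes), against 0.998 between OE-NC replicates 2 and 3, and its deviations from the group mean fell with gene length (Spearman -0.508 across 11131 genes). Of the 23 cadherin and protocadherin genes tested, 22 were lower in OE-NC replicate 1 than in the mean of the other OE-NC libraries, with a median difference of -0.23 on the log2(FPKM + 1) scale. Many of the results that rest on that library are given with and without it.

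Most of the 80 genes were weakly expressed or silent. FPKM scales reads by gene length and library size, so levels can be set side by side between genes. Only 23 genes had a mean of at least 1 FPKM in a group and entered the test. Of the 57 below that level, 31 had under 30 reads in all libraries together, and PCDHA5 had none. By this measure CDH13 was the highest member in both groups, at 19.2 ± 4.36 FPKM in OE-NC and 41.4 ± 1.44 FPKM in OE-SOX3 (SD, n = 3). CDH4, CDH24, PCDHGC3 and CDH9 followed in OE-NC, with means between 4.68 and 7.18 FPKM. In OE-SOX3 the order below CDH13 changed to CDH11, PCDH18 and PCDHGC3, with means of 15.7, 8.91 and 7.40 FPKM.

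The 23 genes tested included 13 that rose in OE-SOX3, 3 that fell and 7 that did not pass (limma-trend on log2(FPKM + 1), Benjamini-Hochberg adjusted p under 0.05). Of all 11131 genes tested, 69.1% passed, 32.9% higher and 36.1% lower in OE-SOX3. Of the 13 genes that rose, 7 reached 1 FPKM in OE-SOX3 only, a class that a gene enters by being higher there and in which 93.3% of all genes rose. They were PCDH1, PCDH10, PCDHB10, PCDHB12, PCDHB13, PCDHB14 and PCDHGB1, and PCDHB7 reached 1 FPKM in OE-NC only. Of the 15 members at 1 FPKM or more in both groups, 6 rose, 2 fell and 7 did not pass. In that class 30.4% of all genes rose and 36.9% fell. The median log2 fold change was 0.31 over the 23 genes and -0.03 over all genes tested. Among genes at 1 FPKM or more in both groups it was 0.11 over the 15 members and -0.05 over all genes. Without OE-NC replicate 1 the counts over the 23 genes were 13 higher and 4 lower, beside 38.4% of all genes higher and 43.1% lower in that fit. With quantile normalization 8 of the 23 rose (34.8%) and 5 fell, beside 69.3% of all genes called, 34.8% higher and 34.5% lower, so the share that rose equalled that of all genes under this scaling. Members were not tested as a set. RNA was measured in bulk, so more cells expressing a gene and more RNA per cell cannot be told apart.

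**Figure D1:**
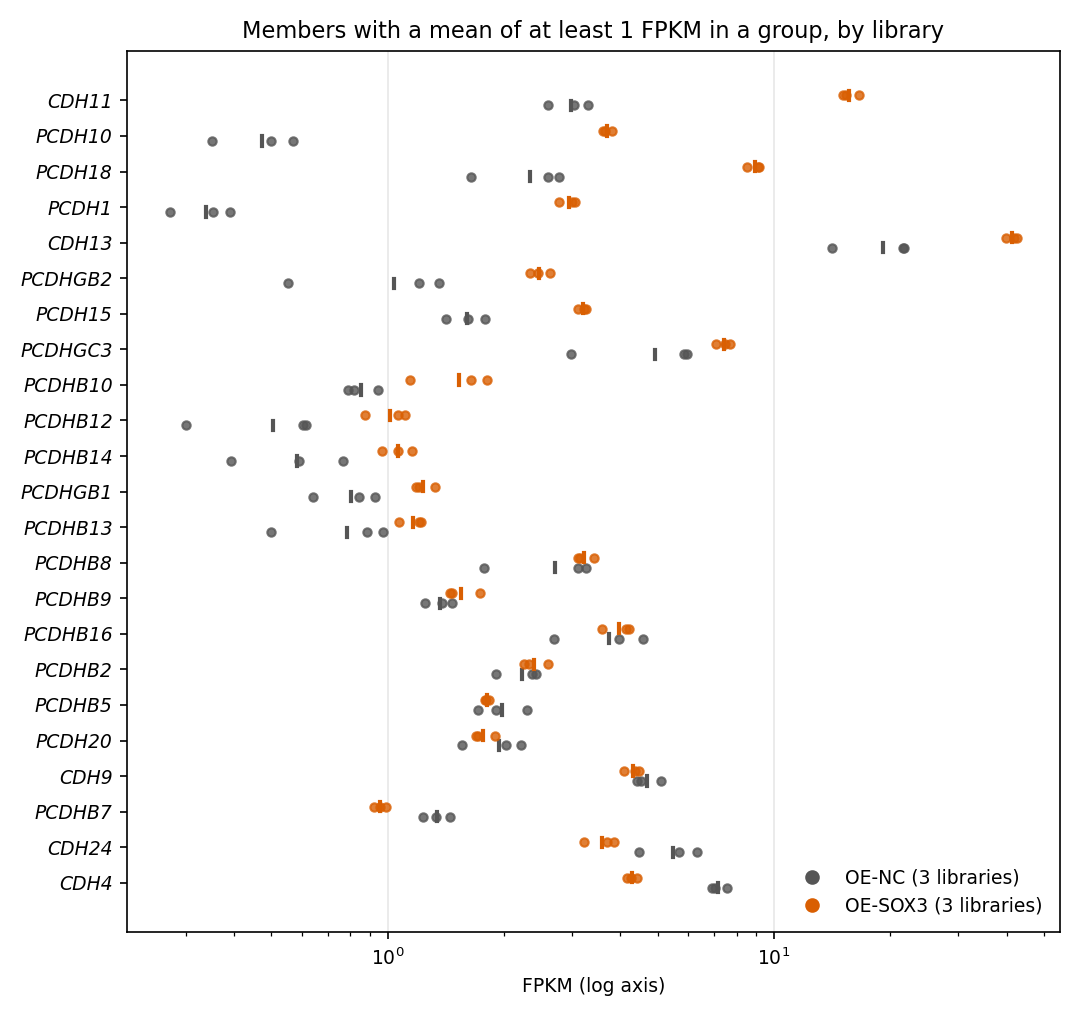
FPKM (log axis) of the 23 cadherin and protocadherin genes tested (group mean of 1 FPKM or more), ordered by log2 fold change. Each point is a library, grey for OE-NC and orange for OE-SOX3, and short bars mark group means; the groups are far apart for CDH11, PCDH10, PCDH18 and PCDH1 and overlap for 7 genes from PCDHB8 to CDH9.

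Among the type II cadherins, CDH11 rose and CDH24 fell. CDH11, or OB-cadherin, is a cadherin of mesenchymal cells and osteoblasts (chromosome 16, 64943753 to 65126112, minus strand, GRCh38). Its level was 2.60, 3.04 and 3.29 FPKM in the OE-NC libraries and 15.1, 16.6 and 15.3 FPKM in the OE-SOX3 libraries. Every OE-SOX3 library lay far above every OE-NC library. The reads differed 5.26-fold per unit depth (95% interval 4.96 to 5.59, exact binomial, counting error only), and CDH11 rose by 2.07 (log2 fold change, SE 0.08, limma adjusted p = 2.8e-06), the largest among the members tested on the log2(FPKM + 1) scale. Markers of stromal and theca cells moved with it: all 6 were in the table, and their summed level was 408 to 415 FPKM in OE-NC and 1959 to 2102 FPKM in OE-SOX3, led by COL1A1. CYP17A1, the theca enzyme among them, had a mean of 0.0601 FPKM in OE-NC and no read in OE-SOX3. The summed level of 5 epithelial markers was 160 to 178 FPKM in OE-NC and 47.0 to 50.1 FPKM in OE-SOX3, a difference made almost wholly by KRT18. KRT8 also fell, while KRT19, CLDN4 and EPCAM had groups that overlapped, EPCAM between 0 and 0.204 FPKM. The part of such markers in the CDH11 result was not tested.

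CDH24, a type II cadherin that binds catenins, fell. Its level was 4.47, 5.68 and 6.31 FPKM in OE-NC and 3.69, 3.22 and 3.85 FPKM in OE-SOX3, a log2 fold change of -0.49 (SE 0.12, limma adjusted p = 0.00745). The OE-SOX3 libraries all lay below the lowest OE-NC library, though only narrowly below OE-NC replicate 1. The call was lost when every library was scaled to the same sum of FPKM (limma adjusted p = 0.0514). CDH9, a type II cadherin studied at synapses in mice, was at 4.68 ± 0.361 FPKM in OE-NC and 4.31 ± 0.185 FPKM in OE-SOX3 (SD, n = 3), and its log2 fold change of -0.10 (SE 0.07, limma adjusted p = 0.249) did not pass.

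The other 9 type II genes were below 1 FPKM. CDH18, the highest of them, had 46, 57 and 56 reads in the OE-NC libraries and 106, 116 and 102 in the OE-SOX3 libraries. CDH8 had 2, 2 and 0 reads in OE-NC and 8, 16 and 17 in OE-SOX3. Both are type II cadherins best known from the brain, and in both the groups did not overlap. Neither reached the level of the test above, so they were tested in an alternative chosen after seeing the data, limma-voom on recovered reads of the 13277 genes with at least 30 reads in all. There 67% of genes passed, 34.3% higher and 32.7% lower in OE-SOX3. Both genes rose in it, CDH18 with a log2 fold change of 1.07 (SE 0.13, limma-voom adjusted p = 0.000234) and CDH8 with 3.24 (SE 0.66, limma-voom adjusted p = 0.00321). For CDH8 the read ratio was 10.6 with a counting interval of 3.82 to 40.6, so its size is poorly known. With 4 reads in OE-NC and 41 in OE-SOX3, CDH8 entered this fit through OE-SOX3. CDH5, the VE-cadherin of endothelial cells, had 2 reads in each group.

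The type I genes here were CDH4 and CDH15, since CDH1 and CDH2 lie outside the set and CDH3 was not analysed here. CDH4, or R-cadherin, was first described in the retina (chromosome 20, 61252426 to 61940617, plus strand). It stood at 7.04, 7.57 and 6.91 FPKM in OE-NC and at 4.17, 4.27 and 4.42 FPKM in OE-SOX3. All OE-SOX3 libraries were well below all OE-NC libraries, and the OE-NC replicates lay close together. CDH4 fell, with a log2 fold change of -0.63 (SE 0.06, limma adjusted p = 0.000105) and a read ratio of 0.596 (95% interval 0.561 to 0.633, counting error only). CDH15, the M-cadherin of muscle, had 7 reads in OE-NC and 16 in OE-SOX3.

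Of the cadherins outside both classical types, CDH13 rose. CDH13, or T-cadherin, is anchored in the membrane by a lipid and has no tail to bind catenins, and it is a receptor of adiponectin (chromosome 16, 82626803 to 83800640, plus strand). Its level was 14.1, 21.7 and 21.6 FPKM in OE-NC and 39.9, 41.8 and 42.7 FPKM in OE-SOX3. OE-NC replicate 1 was the lowest library, and all OE-SOX3 libraries were above the OE-NC group. CDH13 changed by 1.10 on the log2 scale (SE 0.16, limma adjusted p = 0.00065), and without OE-NC replicate 1 it was 0.90 (SE 0.04, limma adjusted p = 3.29e-08). CDH26, known to bind integrins, was far lower at 0.0758 FPKM in OE-NC and 0.205 FPKM in OE-SOX3, with 46 and 121 reads. It rose in limma-voom on recovered reads (log2 fold change 1.41, SE 0.19, adjusted p = 0.000401). CDH23, the upper part of the tip link of inner ear hair cells, had 93 reads in OE-NC and 84 in OE-SOX3 and did not pass there (log2 fold change -0.11, SE 0.17, limma-voom adjusted p = 0.599). The kidney cadherin CDH16 and the intestinal cadherin CDH17 had 1 read in each group.

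**Figure D2:**
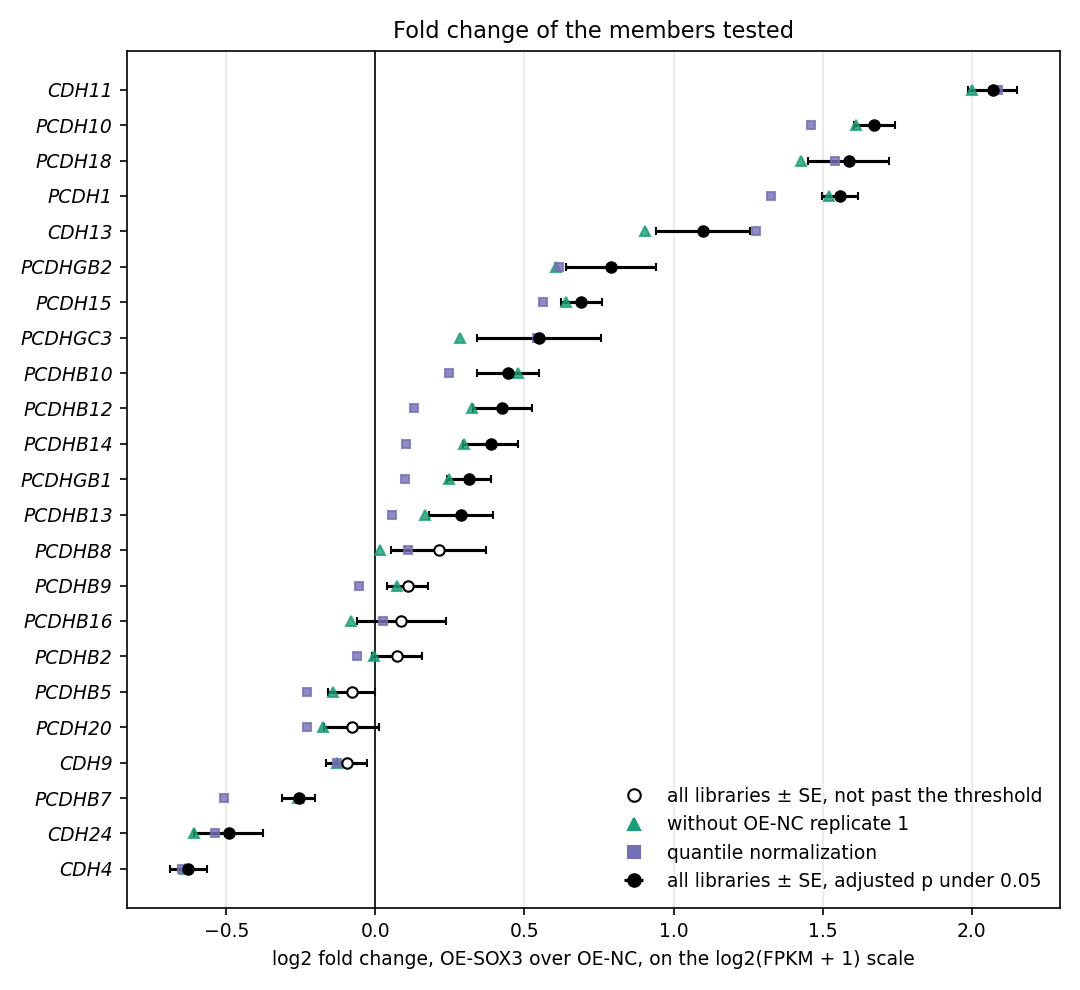
Log2 fold change of OE-SOX3 over OE-NC on the log2(FPKM + 1) scale for the 23 genes tested. Circles show the fit to all libraries with its SE, filled where the adjusted p is under 0.05, green triangles the fit without OE-NC replicate 1 and purple squares the fit after quantile normalization; CDH11 lies highest in the fit to all libraries, at 2.07, and 5 small rises from PCDHB10 to PCDHB13 move toward 0 with quantile normalization.

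Of the 8 delta protocadherins, PCDH1, PCDH10 and PCDH18 rose in the fit at 1 FPKM. PCDH1 and PCDH10 reached 1 FPKM in OE-SOX3 only, so they entered that fit through the group where they are high. Both kept direction and call in all 14 alternatives, among them the fit with no filter on low values. PCDH1, a delta-1 protocadherin of airway epithelium and an entry receptor of some hantaviruses (chromosome 5, 141853111 to 141879246, minus strand), was at 0.273, 0.390 and 0.353 FPKM in OE-NC. In OE-SOX3 it was at 2.99, 2.78 and 3.06 FPKM. PCDH10, a delta-2 protocadherin that recruits the WAVE complex (chromosome 4, 133149315 to 133208606, plus strand), went from 0.352, 0.499 and 0.569 FPKM in OE-NC to 3.64, 3.81 and 3.62 FPKM in OE-SOX3. Both genes were low in every OE-NC library and many-fold higher in every OE-SOX3 library. Their reads differed 8.65-fold (95% interval 7.43 to 10.1) and 7.80-fold (6.88 to 8.86) per unit depth, counting error only. On the log2(FPKM + 1) scale, which understates low genes, the fold changes were 1.56 for PCDH1 (SE 0.06, limma adjusted p = 2.53e-06) and 1.67 for PCDH10 (SE 0.07, limma adjusted p = 3.04e-06).

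PCDH18, a delta-2 protocadherin whose mouse counterpart binds the adaptor Dab1, reached a higher level (chromosome 4, 137518918 to 137532494, minus strand). It was at 1.64, 2.77 and 2.60 FPKM in OE-NC and at 8.50, 9.13 and 9.11 FPKM in OE-SOX3. The groups did not overlap, and OE-NC replicate 1 was again the lowest library. PCDH18 rose with a log2 fold change of 1.59 (SE 0.14, limma adjusted p = 5.23e-05), which was 1.43 without that library. Lower delta protocadherins did not all move. PCDH7 had 39, 54 and 45 reads in OE-NC against 98, 80 and 89 in OE-SOX3 and rose in limma-voom on recovered reads (log2 fold change 0.99, SE 0.15, adjusted p = 0.000866). PCDH9 had 787 reads in OE-NC and 775 in OE-SOX3, a ratio of 1.01 with a counting interval of 0.917 to 1.12, and did not pass (log2 fold change 0.02, SE 0.08, limma-voom adjusted p = 0.827). PCDH19, an epilepsy gene, PCDH17 and PCDH11X had fewer than 30 reads each and did not enter that fit.

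PCDH15 and PCDH20 were the other non-clustered protocadherins above 1 FPKM. PCDH15, the lower part of the hair cell tip link, was at 1.42, 1.78 and 1.62 FPKM in OE-NC and at 3.10, 3.27 and 3.23 FPKM in OE-SOX3. The groups stood well apart, and PCDH15 rose (log2 fold change 0.69, SE 0.07, limma adjusted p = 0.000103), whereas CDH23, its partner in the tip link, had means of 0.116 and 0.108 FPKM. PCDH20 was at 1.56, 2.03 and 2.22 FPKM in OE-NC and at 1.70, 1.72 and 1.89 FPKM in OE-SOX3, with groups that overlapped through OE-NC replicate 1. It did not pass (log2 fold change -0.08, SE 0.09, limma adjusted p = 0.467). Without OE-NC replicate 1 it passed as lower, at -0.17 (SE 0.06, limma adjusted p = 0.0276), and 95.8% of its exon bases lie inside exons of an overlapping gene, AL592490.1, so its reads are uncertain.

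In the gamma cluster 12 of the 17 genes with at least 30 reads rose in limma-voom on recovered reads, 0 fell and 5 did not pass. In that fit 34.3% of all genes were higher and 32.7% lower. The 30 reads are counted over both groups, so a low gene can enter through the group where it is high. PCDHGA11, PCDHGA9, PCDHGB6 and PCDHGA2, all among the 12, had 6, 8, 9 and 14 reads in OE-NC. In OE-SOX3 they had 32, 29, 23 and 45. Summed over the 22 genes of the cluster, the level was 5.68, 10.7 and 10.4 FPKM in OE-NC and 14.6, 16.0 and 15.9 FPKM in OE-SOX3. Every OE-SOX3 library was above every OE-NC library, and OE-NC replicate 1 lay far below the rest of its group. The ratio of the means was 1.73, and 1.47 without that library; the sum over genes was not tested. The cluster is described as a group because its genes share their constant exons. Between 27.6% and 64.4% of a gamma gene's exon bases are shared with other members (median 43.9%), and how reads in the shared exons were assigned is not given in the sources used here.

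**Figure D3:**
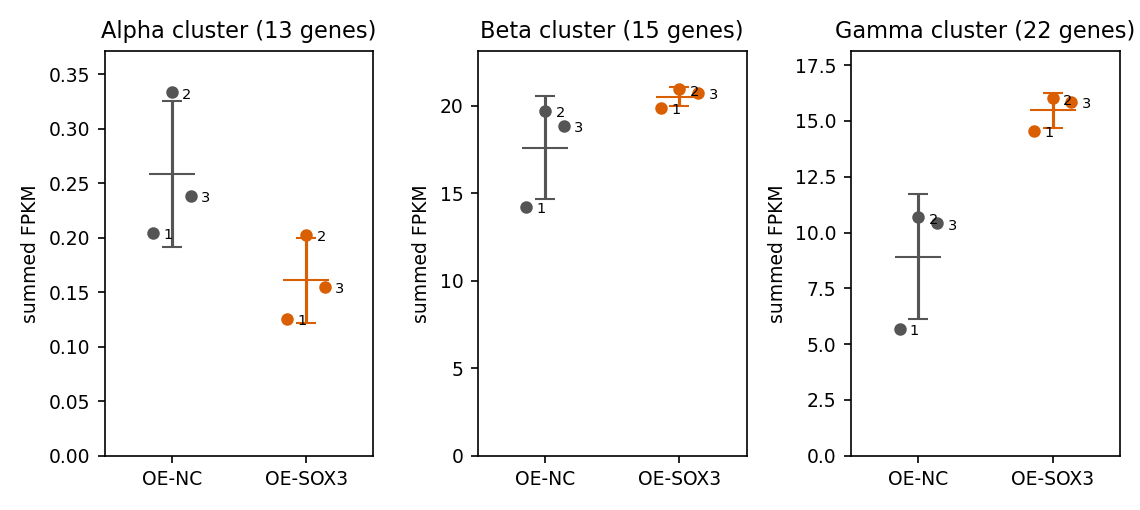
Summed FPKM of the alpha, beta and gamma clusters in each library, numbered by replicate, with the mean and SD of each group as bars. The gamma sum is 14.6 to 16.0 FPKM in OE-SOX3 against 5.68 to 10.7 FPKM in OE-NC, while the beta groups lie within a few FPKM of each other and the alpha sum stays between 0.125 and 0.333 FPKM.

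PCDHGC3, a C-type gene of broad expression at the far end of the cluster, made up more of the gamma sum than any other gene in every library. It was at 2.98, 5.94 and 5.84 FPKM in OE-NC and at 7.06, 7.70 and 7.45 FPKM in OE-SOX3. The groups did not overlap, with OE-NC replicate 1 far below the rest. It rose, with a log2 fold change of 0.55 (SE 0.21, limma adjusted p = 0.0482) that was 0.29 without OE-NC replicate 1 (SE 0.05, limma adjusted p = 0.00073). The call was lost when any OE-SOX3 library was left out (limma adjusted p 0.0932 to 0.124) and in 2 other alternatives, so it is the least secure of the calls here together with PCDHB13. PCDHGB2 was at 0.553, 1.35 and 1.20 FPKM in OE-NC and at 2.44, 2.63 and 2.33 FPKM in OE-SOX3, and rose by 0.79 (SE 0.15, limma adjusted p = 0.00273). In limma-voom on recovered reads its log2 fold change was 1.34 (SE 0.28), and 0.94 without OE-NC replicate 1 (SE 0.12). PCDHGB1 was at 0.639, 0.927 and 0.844 FPKM in OE-NC and at 1.20, 1.18 and 1.32 FPKM in OE-SOX3, and rose by 0.31 (SE 0.07, limma adjusted p = 0.00702). It entered the test through OE-SOX3 only, and its call was lost with quantile normalization (limma adjusted p = 0.191). Both B-type genes were higher in every OE-SOX3 library than in any OE-NC library.

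Within the gamma sum the balance between genes moved. PCDHGC3 held 54.8 ± 1.95% of the summed FPKM in OE-NC and 47.8 ± 0.77% in OE-SOX3, whereas PCDHGB2 held 11.3 ± 1.49% and 16.0 ± 1.11% (SD, n = 3). For neither gene did the shares of the groups overlap, and the difference was not tested. PCDHGC3, PCDHGB2 and PCDHGB1 were the leading gamma genes in all 6 libraries, with 70.0% to 77.0% of the sum between them. By type, the mean summed level went from 1.63 to 3.35 FPKM for the 12 A-type genes, from 2.24 to 4.52 FPKM for the 7 B-type genes and from 5.06 to 7.61 FPKM for the 3 C-type genes. These OE-NC means include replicate 1, whose gamma sum lay far below the rest of its group.

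The other 19 gamma genes were below 1 FPKM. In 12 of them OE-SOX3 lay above OE-NC without overlap, in none below, and in 7 the groups overlapped. Among all genes under 1 FPKM with a read, 26.1% lay above and 10.9% below without overlap. PCDHGA10, the highest of them and just outside the level for testing, had 43, 59 and 57 reads in OE-NC and 93, 109 and 124 in OE-SOX3. PCDHGA4 had 11, 30 and 35 reads in OE-NC and 50, 65 and 61 in OE-SOX3. In both, the lowest OE-SOX3 library held more reads than the highest OE-NC library. In limma-voom on recovered reads the log2 fold change was 1.07 for PCDHGA10 (SE 0.19, adjusted p = 0.00155) and 1.38 for PCDHGA4 (SE 0.37, adjusted p = 0.0116). Without OE-NC replicate 1, PCDHGA4 was at 0.90 (SE 0.22, limma-voom adjusted p = 0.0016). The genes that did not pass were PCDHGA1, PCDHGA3, PCDHGA5, PCDHGB7 and PCDHGC5. Without OE-NC replicate 1 the counts over the 17 genes were again 12 and 0, beside 78.7% of all genes called, 39.4% higher and 39.2% lower. Since these genes share exons, the counts are not independent of each other.

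In the beta cluster the genes that rose lay together at the distal end. Its genes have 1 exon each and share no exon bases with one another, though close relatives can share reads, which makes the values of single beta genes uncertain. The 9 genes from PCDHB2 to PCDHB9, in chromosomal order PCDHB2, PCDHB3, PCDHB4, PCDHB5, PCDHB6, PCDHB7, PCDHB8, PCDHB16 and PCDHB9, included no tested gene that rose. PCDHB4, with 4 reads in OE-NC and 14 in OE-SOX3, entered neither the fit at 1 FPKM nor limma-voom on recovered reads. Its read ratio was 3.60 (counting interval 1.13 to 15.0), so it cannot be counted as a gene that did not rise. The 6 genes that follow PCDHB9, from PCDHB10 to PCDHB15, all rose in limma-voom on recovered reads, in which 34.3% of all genes rose. PCDHB15 had 7 reads in OE-NC and 32 in OE-SOX3, so it entered that fit mainly through OE-SOX3. In the fit at 1 FPKM, PCDHB10, PCDHB12, PCDHB13 and PCDHB14 entered through OE-SOX3 only, so their calls there add nothing to this pattern. The pattern was seen in these values and was not tested.

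**Figure D4:**
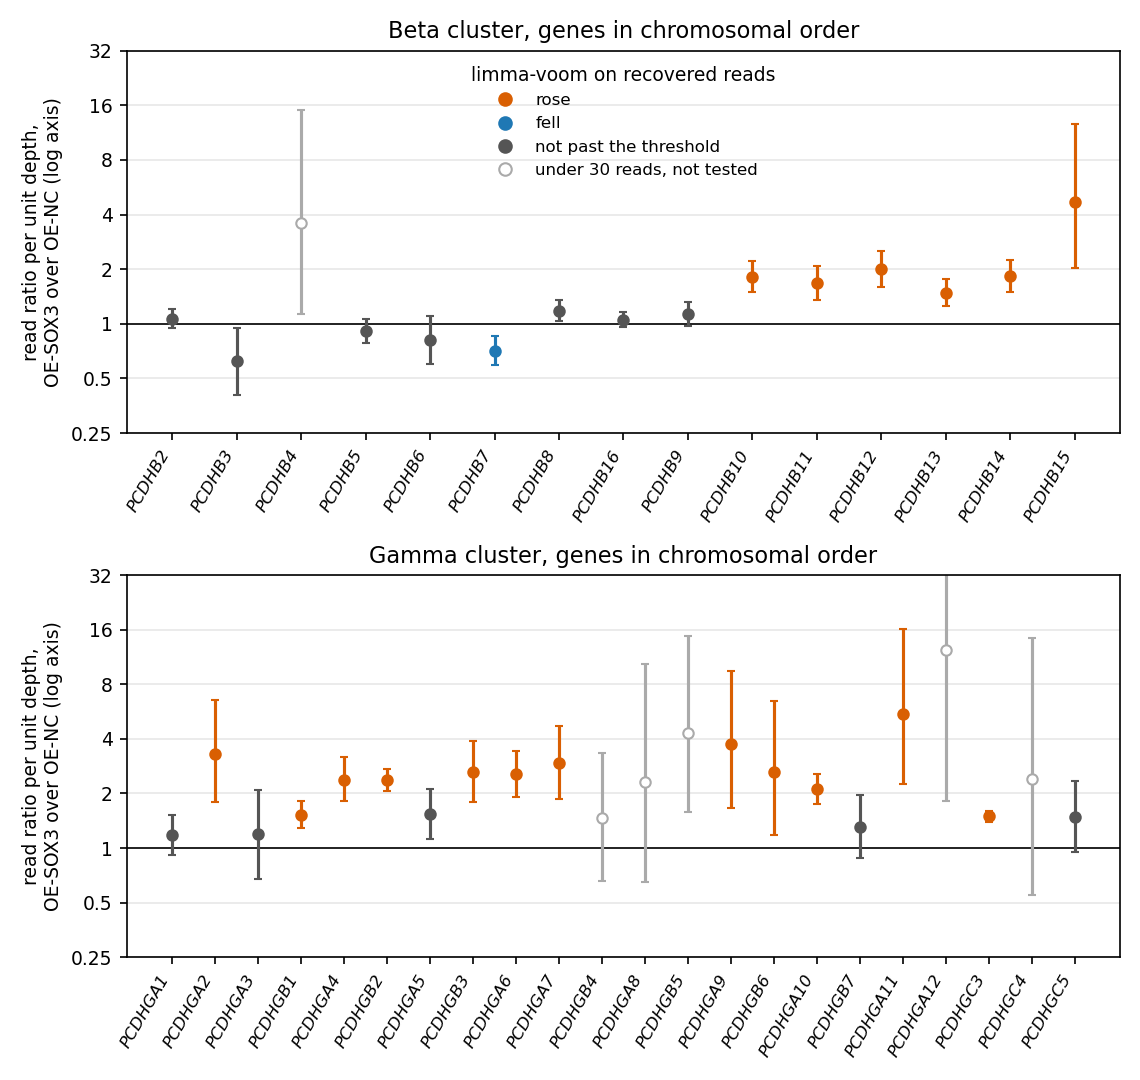
Read ratio per unit depth of OE-SOX3 over OE-NC (log axis) for the beta and gamma genes in chromosomal order, with 95% counting intervals; colour gives the call in limma-voom on recovered reads, and open grey points had under 30 reads. Beta genes up to PCDHB9 lie near or below 1, apart from PCDHB4 with 18 reads, and the 6 genes from PCDHB10 on lie above 1; the interval of PCDHGA12, with 13 reads, runs past the axis.

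At the proximal end, PCDHB7 fell. It was at 1.34, 1.45 and 1.23 FPKM in OE-NC and at 0.953, 0.992 and 0.919 FPKM in OE-SOX3, without overlap, a log2 fold change of -0.26 (SE 0.06, limma adjusted p = 0.00498). PCDHB7 entered that fit through OE-NC only, a class in which 86.3% of all genes fell. In limma-voom on recovered reads it fell too (log2 fold change -0.48, SE 0.12, adjusted p = 0.00844). PCDHB3 had 17, 29 and 17 reads in OE-NC and 17, 10 and 11 in OE-SOX3; per unit depth its OE-SOX3 libraries were lower, but it did not pass with all libraries (log2 fold change -0.66, SE 0.30, limma-voom adjusted p = 0.0855). The genes with the highest beta levels lay here too. PCDHB16, PCDHB8 and PCDHB2 led the cluster in every library, with 44.8% to 51.7% of its summed FPKM.

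These leading genes did not pass. PCDHB16 was at 3.74 ± 0.957 FPKM in OE-NC and 3.97 ± 0.346 FPKM in OE-SOX3 (log2 fold change 0.09, SE 0.15, limma adjusted p = 0.623), and 24.9% of its exon bases lie in exons of other annotated genes. PCDHB8 was at 2.71 ± 0.813 and 3.23 ± 0.174 FPKM (0.21, SE 0.16, limma adjusted p = 0.266). PCDHB2 was at 2.23 ± 0.287 and 2.39 ± 0.187 FPKM (0.07, SE 0.08, limma adjusted p = 0.463). In all of them the groups overlapped, and without OE-NC replicate 1 the log2 fold change of PCDHB8 was 0.02 and that of PCDHB16 -0.08. PCDHB9 (0.11, SE 0.07, limma adjusted p = 0.19) and PCDHB5 (-0.08, SE 0.08, limma adjusted p = 0.399) did not pass either.

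At the distal end, PCDHB10 was at 0.941, 0.791 and 0.820 FPKM in OE-NC and at 1.65, 1.81 and 1.14 FPKM in OE-SOX3. OE-NC replicate 1 was the highest of its group here, unlike in most members, and the groups did not overlap. PCDHB10 rose with a log2 fold change of 0.44 (SE 0.10, limma adjusted p = 0.00707). PCDHB12 was at 0.30, 0.613 and 0.605 FPKM in OE-NC and at 0.872, 1.11 and 1.06 FPKM in OE-SOX3. PCDHB14 was at 0.393, 0.590 and 0.768 FPKM in OE-NC and at 1.06, 1.16 and 0.966 FPKM in OE-SOX3. Both rose, by 0.43 (SE 0.10, limma adjusted p = 0.00651) and 0.39 (SE 0.09, limma adjusted p = 0.00766). In limma-voom on recovered reads their log2 fold changes were 1.05 (SE 0.27) and 0.91 (SE 0.22). Without OE-NC replicate 1 they were 0.72 (SE 0.19) and 0.66 (SE 0.17) in that fit.

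PCDHB13 was closest to the threshold among the beta genes. It was at 0.498, 0.884 and 0.974 FPKM in OE-NC and at 1.07, 1.22 and 1.21 FPKM in OE-SOX3, with a log2 fold change of 0.29 (SE 0.11, limma adjusted p = 0.0443) that was 0.17 without OE-NC replicate 1 (SE 0.06, limma adjusted p = 0.0348). The groups did not overlap, but the call was lost in 6 of 14 alternatives. PCDHB11, just under 1 FPKM, had 39, 46 and 55 reads in OE-NC and 76, 82 and 71 in OE-SOX3. PCDHB15, with few reads, had 1, 3 and 3 in OE-NC and 13, 10 and 9 in OE-SOX3. Both were higher in every OE-SOX3 library and rose in limma-voom on recovered reads, with log2 fold changes of 0.76 (SE 0.16, adjusted p = 0.00376) and 2.11 (SE 0.40, adjusted p = 0.00226). With quantile normalization PCDHB10, PCDHB12, PCDHB13 and PCDHB14 kept their direction and were no longer called.

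Over the cluster these changes added little. The summed beta level was 14.2, 19.7 and 18.8 FPKM in OE-NC and 19.9, 20.9 and 20.8 FPKM in OE-SOX3, a ratio of means of 1.17 that was 1.06 without OE-NC replicate 1. The 6 distal genes are lower than the leading genes of the cluster, and the GGTGGCGCTG element printed above for PCDHB10, PCDHB12, PCDHB13 and PCDHB15 is also present at PCDHB2, PCDHB5, PCDHB7 and PCDHB16.

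The alpha cluster was nearly silent. Its summed level was 0.204, 0.333 and 0.238 FPKM in OE-NC and 0.125, 0.202 and 0.155 FPKM in OE-SOX3, from 92 and 58 reads in all. In none of its 13 genes did the groups separate. PCDHA6 was the highest, with 7, 21 and 9 reads in OE-NC and 5, 9 and 4 in OE-SOX3, and did not pass in limma-voom on recovered reads (log2 fold change -0.87, SE 0.47, adjusted p = 0.141). Without OE-NC replicate 1 it passed as lower (limma-voom adjusted p = 0.0214). PCDHA4, PCDHA5, PCDHA8, PCDHA9, PCDHA10, PCDHA12, PCDHAC1 and PCDHAC2 each had at most 4 reads in the 6 libraries, too few to describe.

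In all, the 57 genes under 1 FPKM lay above OE-NC without overlap in 19 cases, below in 1 and overlapped in 37, beside 26.1% above and 10.9% below over all genes of that level. Of the 26 among them with at least 30 reads, 15 rose and 0 fell in limma-voom on recovered reads, beside 34.3% and 32.7% of all genes. Among the 15, CDH8, PCDHB15, PCDHGA2, PCDHGA9, PCDHGA11 and PCDHGB6 reached 30 reads mainly through OE-SOX3. Without OE-NC replicate 1 the counts were 15 higher and 2 lower, beside 39.4% and 39.2%. The 2 were PCDHA6 and PCDHB3. In the tested genes above 1 FPKM the same comparison gave 13 above, 3 below and 7 overlapping, beside 36.5% and 39.5% of all genes tested lying above and below. Of the 13 above, 7 reached 1 FPKM in OE-SOX3 only, and of the 3 below PCDHB7 reached it in OE-NC only. Genes enter these classes by being higher in that group. Among the 15 members at 1 FPKM or more in both groups, 6 rose and 2 fell, beside 30.4% and 36.9% of all genes of that class.

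Genes that work with cadherins were counted from lists that were drawn up with earlier results of these data known. Among 7 catenins and catenin partners tested, 3 rose, 1 fell and 3 did not pass, beside 32.9% of all genes tested higher and 36.1% lower. Their median was 0.12 on the log2 scale. JUP, or plakoglobin, rose from 5.37 ± 0.147 to 11.4 ± 0.552 FPKM (log2 fold change 0.96, SE 0.06, limma adjusted p = 1.67e-05). CTNNB1, the beta-catenin that binds cadherin tails, rose from 108 ± 1.20 to 165 ± 0.648 FPKM (0.60, SE 0.05, limma adjusted p = 6.89e-05), and the actin linker VCL rose by 0.45 (SE 0.07, limma adjusted p = 0.000767). PKP4 fell by 0.58 on the log2 scale, from 6.99 to 4.34 FPKM. CTNNA1, the alpha-catenin between cadherins and actin, had 90.4 FPKM in OE-NC and 89.2 FPKM in OE-SOX3, the p120 catenin CTNND1 46.4 and 46.9 FPKM, and AFDN 14.4 and 15.7 FPKM, and none of them passed. CTNNA2, CTNNA3, CTNND2 and ARVCF were below 1 FPKM.

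Of 6 other members of the cadherin superfamily tested, 5 rose and 0 fell, beside 32.9% of all genes tested higher and 36.1% lower, with a median log2 fold change of 0.88. CLSTN3, a calsyntenin, went from 3.89 to 11.6 FPKM and CLSTN1 from 35.0 to 53.3 FPKM. CELSR2, a receptor of planar polarity, went from 0.527 to 1.84 FPKM and so entered the test through OE-SOX3 only, and the desmosomal DSG2 from 17.6 to 32.0 FPKM. DSG2 was at 11.4 FPKM in OE-NC replicate 1, against 21.1 and 20.3 FPKM in the rest of its group. In limma-voom on recovered reads its log2 fold change was 0.91 (SE 0.22), and 0.63 without that library (SE 0.05). FAT1 and FAT4, also in the median, were far lower in that library too. The WAVE complex, which PCDH10 recruits, had 9 genes tested, of which 2 rose (ABI2 and CYFIP2), 1 fell (BRK1) and 6 did not pass, a median log2 fold change of 0.11.

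Genes that govern promoter choice in the protocadherin clusters moved both ways: 6 of 16 rose (37.5%), 5 fell (31.3%) and 5 did not pass (median 0.09). Of all genes tested, 32.9% were higher and 36.1% lower, shares close to these. The cohesin subunit SMC1A fell from 42.8 ± 0.671 to 14.5 ± 0.245 FPKM (log2 fold change -1.50, SE 0.05, limma adjusted p = 2.17e-06). CTCF fell from 18.2 ± 1.00 to 9.56 ± 0.303 FPKM (-0.86, SE 0.07, limma adjusted p = 3.16e-05). The DNA methyltransferase DNMT3A went from 0.823 to 2.07 FPKM and so entered the test through OE-SOX3 only. The histone methyltransferase SETDB1 rose from 5.08 to 7.77 FPKM. Among 10 genes of cadherin cleavage, 5 rose, 4 fell and 1 did not pass, beside the same 32.9% and 36.1% of all genes, with a median of 0.04. ADAM10, the protease that sheds cadherins, rose from 13.2 to 23.8 FPKM, MMP14 from 55.7 to 93.7 FPKM and APH1B from 6.02 to 8.33 FPKM, and PSEN2 of gamma-secretase fell from 7.90 to 3.97 FPKM. What part these genes have in the values of the cadherins and protocadherins was not tested.

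**Figure D5:**
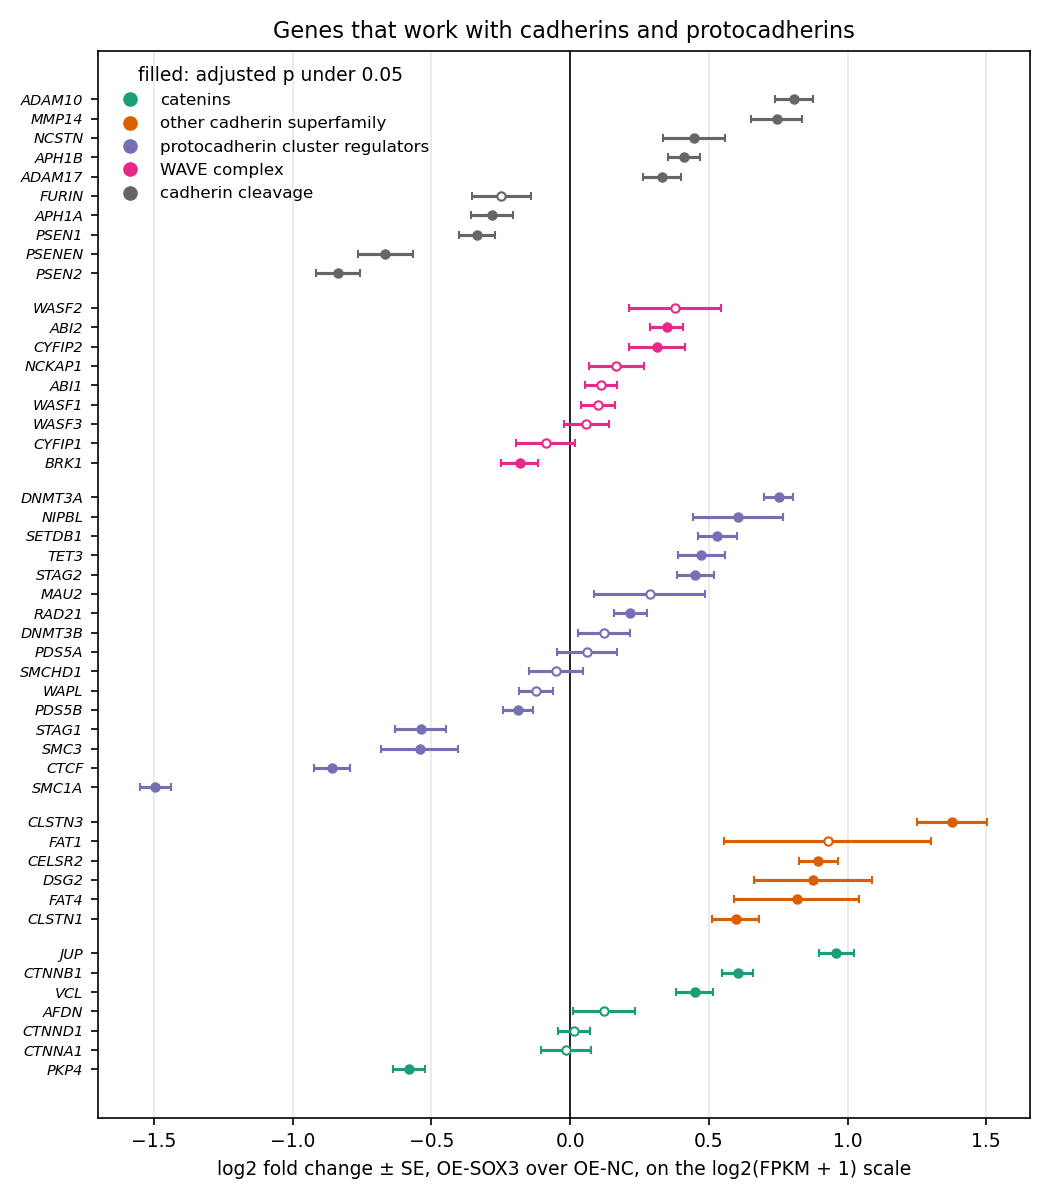
Log2 fold change with SE of OE-SOX3 over OE-NC on the log2(FPKM + 1) scale for the tested genes of 5 lists, filled where the limma adjusted p is under 0.05. SMC1A lies lowest at -1.50 and CLSTN3 highest at 1.38; every tested gene of the other cadherin superfamily lies above 0, with FAT1 not past the threshold, and the regulators, cleavage genes and catenins lie on both sides.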

How the data were processed

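The deposited values are FPKM, 1 per library for each of 16626 gene symbols. The unit is not named in the header and was read from the values, which are whole multiples of a step set by gene length. HISAT2, HTSeq and RSEM and the build hg38 are named without roles or versions, per the submitters' processing notes; the sources used here give no annotation, strand setting or treatment of reads shared between genes. FPKM does not correct a bias by gene length that differs between libraries.

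Whole reads were recovered for all 16278 genes above 0 (within 0.02 reads) and used for depth, counting intervals and alternative tests. The table holds no counts, so the main test was limma-trend (limma 3.58.1, R 4.3.3) on log2(FPKM + 1) over the 11131 genes whose mean reached 1 FPKM in either group, with Benjamini-Hochberg adjustment at 0.05. The scripts were tested on simulated data and used Python 3.11.15, NumPy 2.4.6, pandas 2.3.3, SciPy 1.17.1 and matplotlib 3.10.9. Every member above 1 FPKM was named, along with up to 4 tested genes of each partner list by adjusted p and all catenins tested. Low members described beyond the highest of their subfamily were chosen after their values were seen. The members and lists were chosen with earlier results of these data known. Replicate numbers are shared between the groups, and deviations from the group means correlated at 0.486, 0.243 and 0.25 for the 3 same-numbered pairs, which come from the titles; differently numbered pairs correlated at -0.462 to 0.282. Alternatives were another pseudocount, filters, scalings, a length correction, recovered reads, the replicate block and leaving out each library. Promoter strings were derived from the RefSeq promoters themselves. Coordinates and exon overlaps come from GENCODE 29 (GRCh38) by symbol.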

Additional observations from a re-analysis of the deposited data

How the results depend on the processing

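Of the 320 alternative values for single genes, 292 kept direction and side of the threshold, 16 lost the call, 3 gained one and 9 reversed, none of the reversed from a called gene. CDH11, CDH13, CDH4, PCDH1, PCDH10, PCDH15, PCDH18, PCDHB7 and PCDHGB2 kept direction and call in all 14 alternatives run for them.

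Against 16 members called (13 higher, 3 lower), 31 of 79 tested were called with no filter (28 higher). That was 39.2% called and 35.4% higher, beside 54.9% and 28.5% of all genes. In limma-voom on genes with at least 30 reads, 31 of 49 members were called (28 higher). That was 63.3% called and 57.1% higher, beside 67.0% and 34.3% of all genes. Without OE-NC replicate 1, 34 were called in that fit (28 higher, 6 lower), 69.4% beside 78.7% of all genes. A filter at 0.3 FPKM gave 20 higher (57.1%, beside 34.0% of all genes). Quantile normalization gave 8 higher and 5 lower (34.8% and 21.7%, beside 34.8% and 34.5%). Leaving out 1 library gave 13 to 17 members, 10 to 13 higher and 3 to 4 lower. In those fits 58.9% to 81.5% of all genes were called, 28.3% to 38.4% higher and 30.6% to 43.1% lower. The same sum of FPKM moved the median of all genes from -0.03 to 0.10 and the share of higher among called genes from 47.7% to 57.5%. The reversed values were CDH9 0.0101 (length trend removed) and 0.025 (same sum), PCDH20 0.0201 (same sum), PCDHB5 0.0039 (length trend removed) and 0.0209 (same sum), PCDHB2 -0.0612 and PCDHB9 -0.0562 (quantile). Leaving out 1 library gave -0.0822 (OE-NC replicate 1) to 0.214 for PCDHB16 and -0.0034 (OE-NC replicate 1) to 0.116 for PCDHB2. The cause was not tested. PCDHB12 had no value without OE-SOX3 replicate 2 or 3, since it fell under the filter.

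Every same-numbered pair correlated at over 0.1, although OE-NC replicate 3 correlated more with OE-SOX3 replicate 2 (0.282) than with its own number (0.25). The main fit did not use this pairing, which entered only the alternative with the replicate block. With the replicate block 16 members were called, the same as without it, and no member's call differed; over all genes 8031 passed in place of 7686. The members under 30 reads, other than PCDHA5 with none, were tested only in the fit with no filter.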
